A study of Homo sapiens with 4 samples.

Results

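The genes described here are 9 epithelial junction genes measured in MCF-10A cells: EPCAM, the claudin genes CLDN1, CLDN3, CLDN4 and CLDN7, the tetraspan genes OCLN and MARVELD2, the scaffold gene TJP1 and the junctional adhesion molecule gene F11R. They were taken by name, and their probes were those of the array annotated with a RefSeq transcript of a member gene, which gave 12 of 50590 probes and 9 of the 20501 genes that could be named. MCF-10A is a line of normal human mammary epithelial cells, and all cultures were kept in a growth medium with pituitary extract, hydrocortisone, EGF, insulin and cholera toxin. Cells received 10 µM of a stapled peptide for 24 h or 48 h, labelled either stapled-Peptide or non-specific stapled-Peptide and marked as control in the second case. Each of the 4 conditions was a single array of 1 culture, so values have no replicate spread, no test compares the peptides, and precision is limited by how few arrays there are. The labels do not say which of the peptides of the study each name stands for, so values are given by label.

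Tight junctions seal the space between neighbouring epithelial cells near their apical side. Claudins are the membrane proteins that form the seal and set its permeability, occludin and tricellulin (the products of OCLN and MARVELD2) belong to the MARVEL family and stabilise contacts between 2 and 3 cells respectively, and ZO-1 (TJP1) ties these proteins to actin. JAM-A (F11R) is an immunoglobulin-type adhesion protein of the same junction. EPCAM is a cell surface glycoprotein that binds claudins such as claudin-7 and claudin-1 and keeps them from being degraded.

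Each probe of the members had a single spot per array, and 0 of these spots were marked as outliers. All 4 arrays lay on 1 slide and were scanned at 1 time. Values are log2 signals after quantile normalization, and unless times are compared a difference is positive where the signal was higher with non-specific stapled-Peptide. The ± beside a difference is the technical error of the spots that the scanner software gives, combined over both arrays. It covers neither the culture nor the labelling. A gene with several probes is given at its brighter probe, by the mean over the arrays, and signals are compared between arrays for the same probe only, never between probes.

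The array of non-specific stapled-Peptide at 48 h stood apart from the others. Pearson correlations were taken over probes well above background on either or both arrays of a pair, so the probes differ between pairs. This array had a correlation of 0.799 to 0.807 with the other 3 arrays, whereas these had 0.976 to 0.978 among themselves. Of the markers of basal mammary epithelium, 10 of 10 were well above background on each of the other 3 arrays. The log2 of their summed signal was 16.74 to 16.78 there and 8.82 on this array, where KRT6A was not well above background. By over 4-fold 9 of 10 genes were lower than with stapled-Peptide, against 8.70% of all genes. The markers of embryonic kidney lines had 9.62 to 9.72 on the other 3 arrays and 14.77 on this one. On the other 3 arrays LIN28B, NEFL, NEFM and PHOX2A were not well above background, so the sum there rests mainly on HOXA9. Of the 7 with a value, 5 were higher by over 4-fold, against 8.10% of all genes. These were CKB, HOXA9, LIN28B, NEFL and NEFM. PHOX2A, PAX2 and L1CAM were not well above background on this array at their brighter probes. At these probes PAX2 and L1CAM were lower than with stapled-Peptide, with bounds of −0.59 and −0.58. The other probes of PAX2 and L1CAM were well above background on this array, with bounds of at least 3.89 and at least 0.11 respectively. HOXA9 was past 4-fold at its brighter probe only. The other lists were mixed in sign at 48 h, and their sums follow their brightest genes. The luminal list, whose brightest gene is KRT18, had a sum of 14.90 to 14.98 and then 12.68. In it 2 genes were higher and 4 lower with a median of −0.23, and ESR1, among the lower, was within its technical error. By over 4-fold 2 of 6 genes were lower, KRT8 (−2.79) and KRT18 (−2.34), and 0 higher, against 8.70% and 8.10% of all genes. AGR2 and PGR were not well above background on any of the 4 arrays. The pan-epithelial list, led by KRT7, had 15.95 to 16.01 and then 10.68. In it 2 genes were higher, GRHL2 and ESRP2, and 3 lower, with a median of −0.31. GRHL2 had a bound of at least 2.25, and its other probe was not well above background on either array at 48 h. ESRP2 differed by 0.31. Past 4-fold in this list were GRHL2, which was higher, and KRT7, which was lower at −6.06. The mesenchymal list, led by VIM, had 16.30 to 16.41 and then 14.27, with 2 genes higher, CDH2 and COL1A1, and 5 lower and a median of −0.73. The difference of COL1A1 was within its technical error, and that of CDH2 was 0.23 ± 0.20. By over 4-fold 2 of 7 genes were lower, VIM (−2.35) and TWIST1 (−2.92), and 0 higher, against 8.70% and 8.10% of all genes. All these marker lists were chosen with earlier results of these data known, so they are no independent evidence about this sample. The part that the make-up of this sample has in the values below was not tested, and in RNA of whole cultures fewer cells of a type and less RNA per cell cannot be told apart.

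Promoter sequences are shown for the 3 members with the largest differences at 48 h, CLDN4, OCLN and CLDN7, since these are the genes through which both directions of difference are followed below. Each is the 250 bases before a start site of RefSeq on build GRCh38.p14, 5′ to 3′, and capitals mark the E-box CACCTG and its reverse complement CAGGTG, the motif that repressors of the SNAIL and ZEB families are known to bind.
CLDN4, chr7:73830746-73830995, plus strand: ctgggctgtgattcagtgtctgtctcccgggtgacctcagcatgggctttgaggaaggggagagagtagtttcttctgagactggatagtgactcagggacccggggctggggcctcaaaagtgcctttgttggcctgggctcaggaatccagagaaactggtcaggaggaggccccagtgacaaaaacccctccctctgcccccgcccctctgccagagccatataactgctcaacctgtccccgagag
OCLN, chr5:69492297-69492546, plus strand: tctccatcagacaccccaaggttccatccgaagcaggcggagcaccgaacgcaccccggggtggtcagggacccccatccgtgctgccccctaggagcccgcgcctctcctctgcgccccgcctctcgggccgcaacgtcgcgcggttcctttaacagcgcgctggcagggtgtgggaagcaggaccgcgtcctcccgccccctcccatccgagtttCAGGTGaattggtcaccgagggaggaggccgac
OCLN, chr5:69492540-69492789, plus strand: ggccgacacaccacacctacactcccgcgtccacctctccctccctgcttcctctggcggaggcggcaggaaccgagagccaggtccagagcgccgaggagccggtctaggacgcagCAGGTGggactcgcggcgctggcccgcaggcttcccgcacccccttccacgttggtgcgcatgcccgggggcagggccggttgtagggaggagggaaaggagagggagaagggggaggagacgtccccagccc
CLDN7, chr17:7263214-7263463, minus strand: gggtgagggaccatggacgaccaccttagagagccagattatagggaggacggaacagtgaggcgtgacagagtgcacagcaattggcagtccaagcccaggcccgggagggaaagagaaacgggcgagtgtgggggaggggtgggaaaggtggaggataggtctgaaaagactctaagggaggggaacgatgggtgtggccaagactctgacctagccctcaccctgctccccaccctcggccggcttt
CLDN7, chr17:7262479-7262728, minus strand: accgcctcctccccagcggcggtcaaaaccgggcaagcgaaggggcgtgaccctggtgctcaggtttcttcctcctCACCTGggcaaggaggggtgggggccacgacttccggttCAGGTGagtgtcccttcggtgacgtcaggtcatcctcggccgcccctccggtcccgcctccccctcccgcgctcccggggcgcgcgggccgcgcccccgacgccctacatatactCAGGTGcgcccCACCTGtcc
The 2 start sites of CLDN7 differed in this respect. The second held 4 matches and the first 0, each window of OCLN held 1 match, and the window of CLDN4 held 0. Among 35116 windows of the same length before all start sites in the table, 17.5% held at least 1 match. The grainyhead motif AACCGGTT, which reads the same on both strands and was found in 0.117% of the windows, had 0 matches in these 5, and so had the TATA box TATAAA with its reverse complement TTTATA, found in 3763 windows. Of the 9 members, 7 were matched to this table. A match describes the letters of the window only.

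At 48 h the members went both ways by moderate amounts. EPCAM, CLDN4, OCLN and MARVELD2 were higher with non-specific stapled-Peptide and CLDN1, CLDN7, TJP1 and F11R were lower, and CLDN3 gave no value, since it was well above background on the non-specific array only and its signal there was no higher than on the other. Of the 8 members with a value, 0 were past 4-fold, against 16.8% of 17112 genes, and 4 were past 2-fold, against 41.0%. Of these, 2 were higher and 2 lower, against 21.2% and 19.8% of all genes. Their median difference was 0.15 and that of all genes 0.03, with a median absolute difference of 1.02 and 0.81 respectively. At 24 h 1 of 8 members was past 4-fold, which was OCLN, against 0.413% of 16228 genes, and the median was 0.09 against 0.01 for all genes. That call ended under scaling to the 75th percentile (1.93), without normalization (1.92) and under normexp (0.99).

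**Figure D1:**
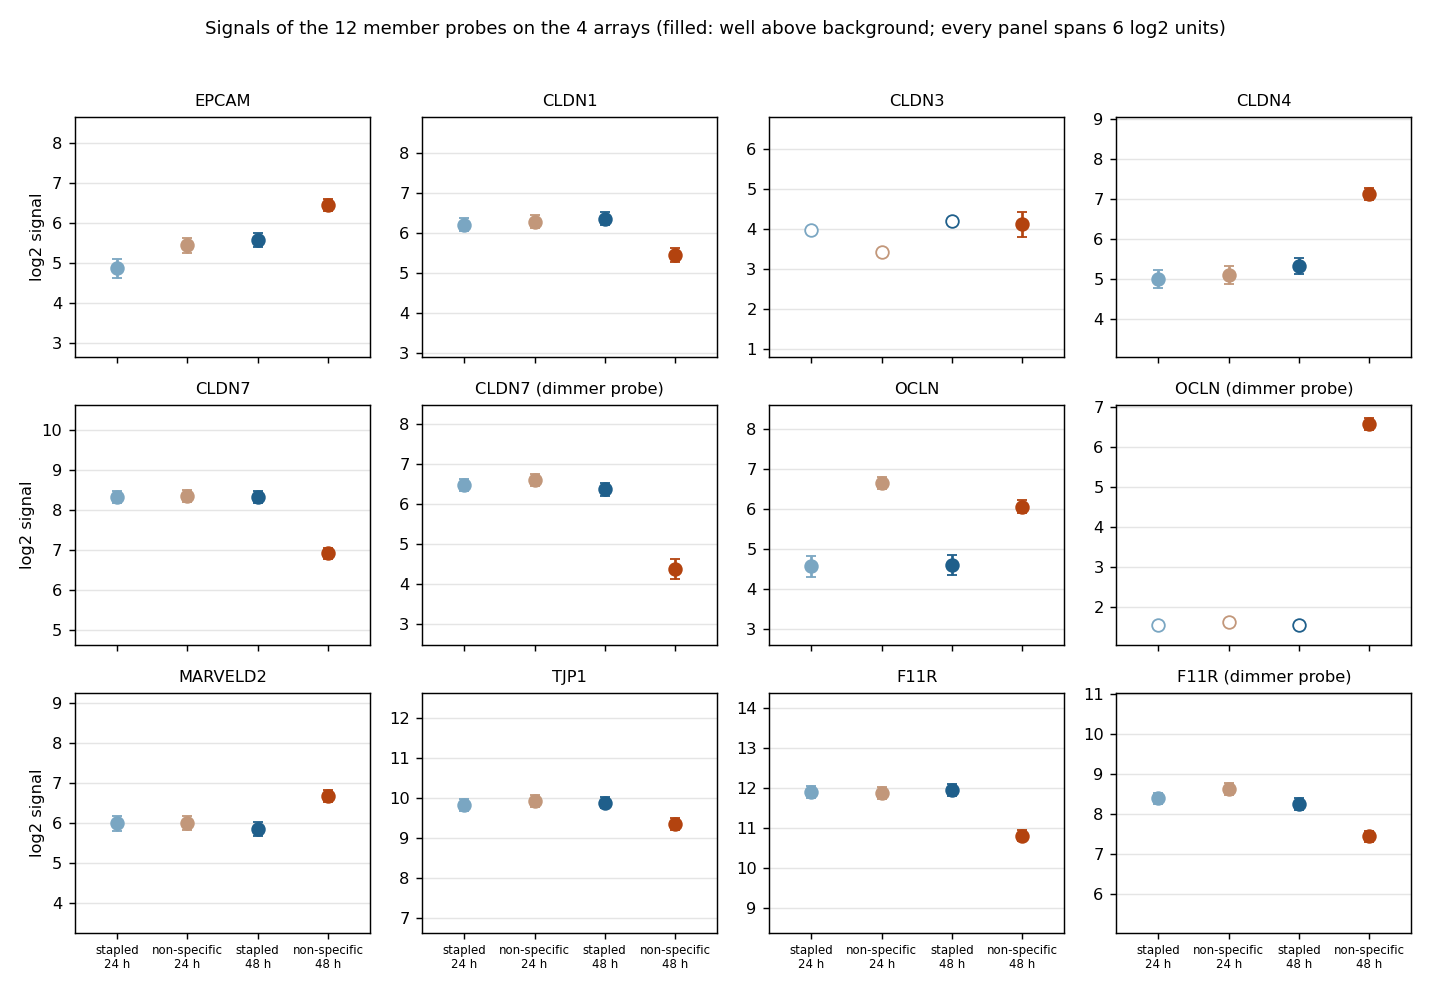
Log2 signal of each of the 12 member probes (vertical axis) on the 4 arrays (horizontal axis, 1 array each). Filled points were well above background and open points were not, bars are the technical error of the spot, and every panel spans 6 log2 units so that distances can be compared between panels. The non-specific array at 48 h lay above or below the others for most probes, whereas OCLN at its brighter probe was high on both non-specific arrays.

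EPCAM, the founding member of its small family, had log2 signals at 24 h of 4.86 on the stapled and 5.44 on the non-specific array, and at 48 h of 5.58 and 6.46. It was well above background on all 4 arrays, lowest on the first and highest on the last. The difference was 0.88 ± 0.23 at 48 h, which is 1.84-fold, and 46.6% of genes had a larger absolute difference. At 24 h it was 0.58 ± 0.29, and 6.17% of genes differed by more. With stapled-Peptide the signal was also higher at 48 h than at 24 h, by 0.72 ± 0.29, so its distance between arrays of the same label was close to that between the peptides at 48 h.

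Among the claudins, CLDN4 and CLDN7 differed in opposite directions. CLDN4, whose product is known as a barrier to sodium ions, had log2 signals of 5.00 (stapled, 24 h), 5.10 (non-specific, 24 h), 5.32 (stapled, 48 h) and 7.12 (non-specific, 48 h). The last stood above the others, which lay within 0.33 of each other. The difference at 48 h was 1.79 ± 0.25, or 3.47-fold, the largest of the 8 members at their brighter probes, and 20.0% of all genes differed by more. Between the times it was 2.02 ± 0.26 with non-specific stapled-Peptide and 0.33 ± 0.31 with stapled-Peptide.

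CLDN7, the claudin that binds EPCAM directly, was measured by 2 probes. In the same order of arrays the brighter had log2 signals of 8.32, 8.35, 8.32 and 6.91, and the dimmer 6.48, 6.60, 6.37 and 4.38. On both probes the last array was the low one. Their differences at 48 h were −1.41 ± 0.21 and −2.00 ± 0.30, which is 2.66-fold and 3.99-fold lower, whereas at 24 h they were 0.03 ± 0.21 and 0.13 ± 0.22. CLDN1, a claudin of the barrier in stratified epithelia, had 6.20, 6.28, 6.35 and 5.45, with a difference of −0.90 ± 0.24 at 48 h and 0.08 ± 0.24 at 24 h.

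CLDN3, a barrier claudin with a role like that of CLDN4, stood at the edge of detection. Its log2 signals were 3.98, 3.42 and 4.20 on the first 3 arrays, where it was not well above background, and 4.12 on the last, where it was. CLDN3 and CLDN4 are neighbours on chromosome 7 in the order of protein-coding genes. The arrays therefore showed a higher signal for CLDN4 at 48 h and no measurable difference for the gene next to it.

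The members of the MARVEL family were both higher at 48 h. MARVELD2 encodes tricellulin, which sits where 3 cells meet, and its log2 signals were 5.98, 5.99, 5.84 and 6.66. The first 3 arrays lay within 0.15 of each other, and the difference at 48 h was 0.83 ± 0.23 against 0.01 ± 0.25 at 24 h. OCLN lies next to MARVELD2 on chromosome 5 and encodes occludin.

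The probes of OCLN disagreed about the array of non-specific stapled-Peptide at 24 h. At the brighter probe the log2 signals were 4.57 and 6.65 at 24 h and 4.59 and 6.06 at 48 h, so that both non-specific arrays were high and both stapled arrays low, with differences of 2.09 ± 0.30 at 24 h and 1.47 ± 0.30 at 48 h. The dimmer probe was not well above background on the first 3 arrays, at 1.54, 1.61 and 1.54, and had 6.56 on the last, so its difference at 48 h is a bound of at least 2.68 (at least 6.39-fold) and it gives no value at 24 h. At 48 h both probes were therefore higher with non-specific stapled-Peptide, whereas the 4-fold difference at 24 h rested on a single spot per array of 1 probe. At 24 h 0.364% of genes had a larger absolute difference than that probe.

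TJP1, the scaffold, had the smallest difference of the members with a value at 48 h. Its log2 signals were 9.82, 9.91, 9.88 and 9.34, a difference of −0.54 ± 0.20, and 65.3% of genes differed by more. F11R, which encodes JAM-A, had 11.89, 11.86, 11.95 and 10.80 at its brighter probe and 8.38, 8.62, 8.24 and 7.44 at the other. The last array was the low one on both, with differences of −1.14 ± 0.20 and −0.81 ± 0.21 at 48 h, while at 24 h they were −0.03 ± 0.20 and 0.24 ± 0.21.

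**Figure D2:**
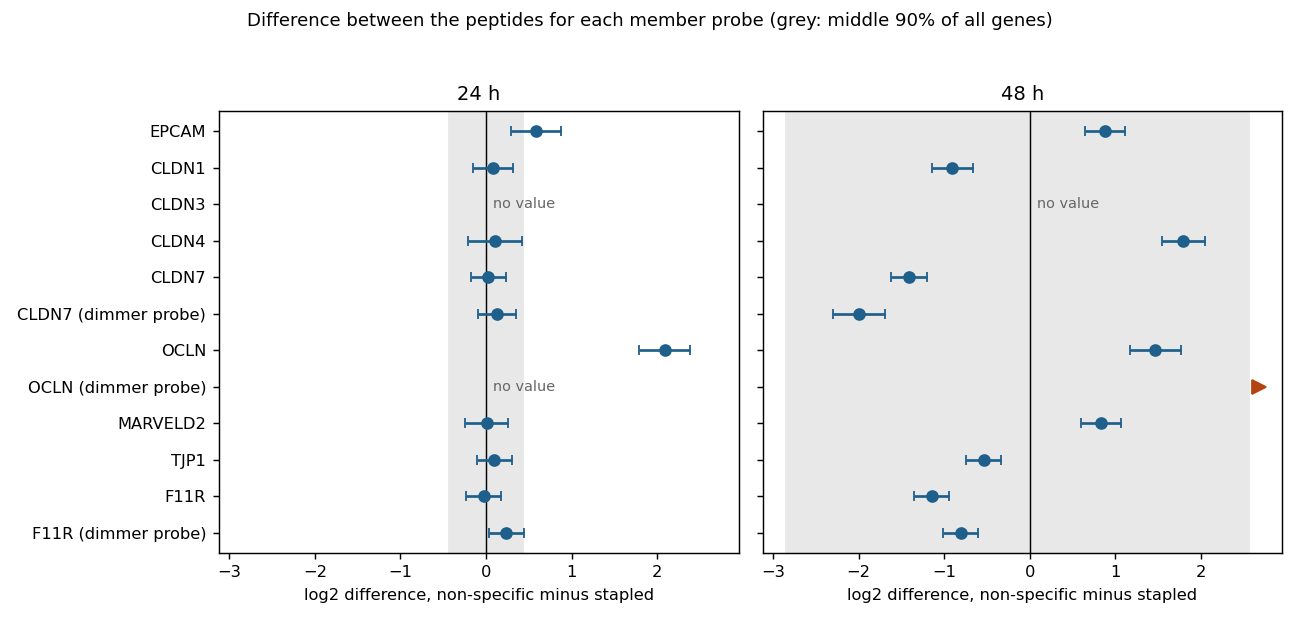
Log2 difference between the peptides (horizontal axis, non-specific minus stapled) for each of the 12 member probes at 24 h (left) and 48 h (right). Points are measured differences with their technical error, the triangle is a bound, and the grey band holds the middle 90% of all genes, −0.44 to 0.44 at 24 h and −2.85 to 2.56 at 48 h. At 48 h all measured member differences lay inside the band, and the bound, at the dimmer probe of OCLN, lay above it. At 24 h OCLN at its brighter probe and EPCAM lay outside the band.

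The times were also compared within a label. With stapled-Peptide 0 of 8 members were past 4-fold between 24 h and 48 h, against 0.521% of 16138 genes, and the differences ran from −0.15 for MARVELD2 to 0.72 for EPCAM. With non-specific stapled-Peptide 1 of 9 members, CLDN4, was past 4-fold, against 16.6% of 17297 genes, and 4 were past 2-fold, against 41.3%. The range there was −1.44 for CLDN7 to 2.02 for CLDN4 at the brighter probes, the latter at the 4-fold threshold. The dimmer probe of CLDN7 was past 4-fold, at −2.23 ± 0.30. OCLN had −0.59 ± 0.22 at its brighter probe but at least 2.78 at the dimmer one. These comparisons share arrays with those between the peptides and are not independent of them.

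EPCAM is processed at the cell surface by matriptase (ST14) and by ADAM proteases, and matriptase is held in check by the inhibitors HAI-1 (SPINT1) and HAI-2 (SPINT2). Of the 6 genes in the list of these proteases and inhibitors, 6 had a difference below 0 at 48 h, against 48.9% of all genes, and that of ADAM17 was within its technical error. By over 4-fold 3 were lower, against 8.70% of all genes, and 0 were higher, against 8.10%. The 3 became 1 under normexp, and 2 without normalization or when both arrays had to be well above background. The median was −1.58. Those past 4-fold were SPINT1, ADAM10 and ST14.

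SPINT1 had 7.77, 7.64 and 7.78 on the first 3 arrays and 3.11, not well above background, on the last, a bound of −4.21 at 48 h. ADAM10, a sheddase, had 8.04, 8.13, 8.21 and 5.46, a difference of −2.74 ± 0.23, and its other probe differed by −2.52. ST14 had 8.30, 8.12, 8.05 and 6.04, a difference of −2.01 ± 0.21 that lies at the 4-fold threshold. The differences of PRSS8 (prostasin, −1.15), SPINT2 (−0.51) and ADAM17 (−0.16) were smaller, and at 24 h the 6 genes lay between −0.18 and 0.20.

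**Figure D3:**
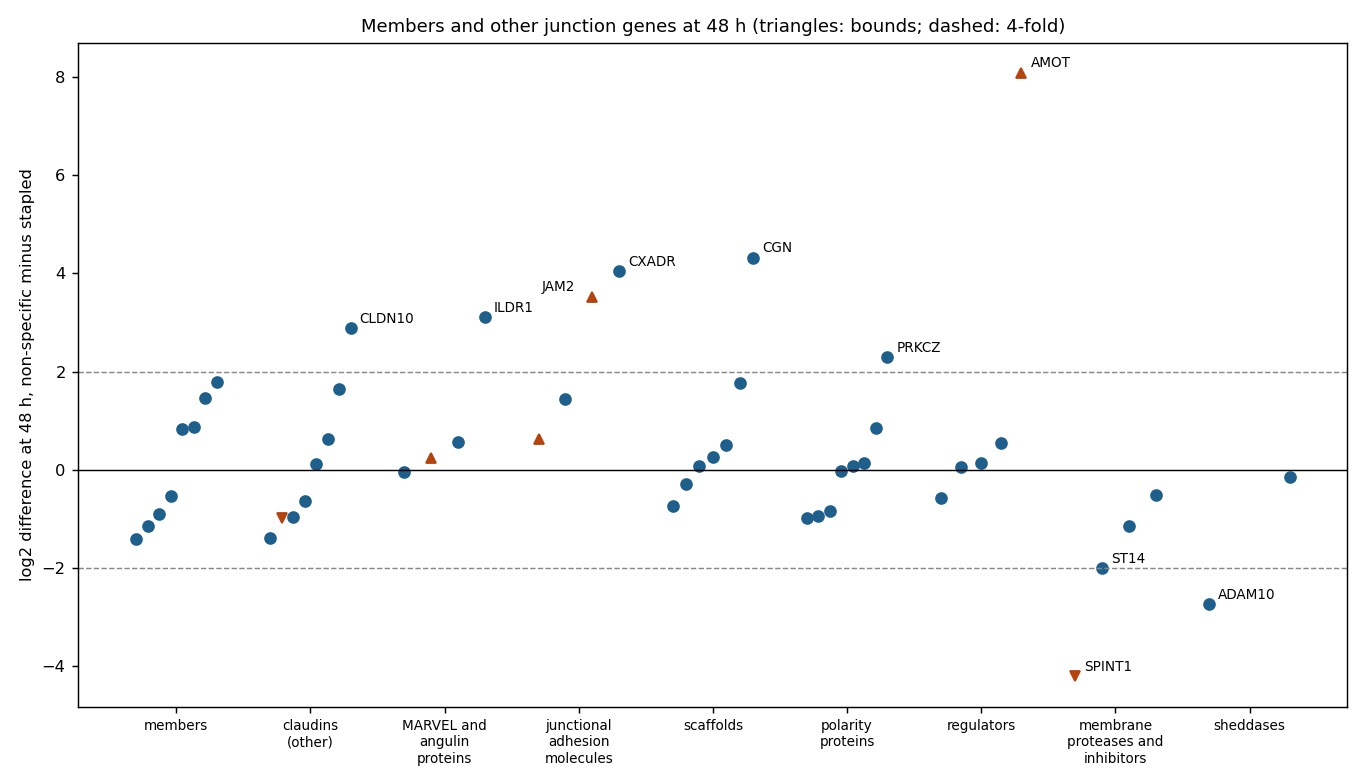
Log2 difference at 48 h (vertical axis, non-specific minus stapled) for the member genes and the other junction genes, grouped by role along the horizontal axis, 1 symbol per gene at its brighter probe. Triangles are bounds, dashed lines mark 4-fold, and genes past 4-fold are named. The 8 members with a value lie between the lines, AMOT lies far above them and SPINT1 is the lowest symbol.

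Some other genes of the tight junction went past 4-fold. Of 45 such genes on the array 36 had a value at 48 h, 7 were higher by over 4-fold, against 8.10% of all genes, and 0 were lower by over 4-fold, against 8.70%. Without ILDR1, whose probes disagree, 6 of 35 were higher. The median difference of the 36 was 0.19. Their median absolute difference was 0.69, against 0.81 for all genes, and 11 were past 2-fold, against 41.0% of all genes. At 24 h 0 of 34 were past 4-fold, against 0.413% of all genes. The 7 genes were CGN, CXADR, JAM2, CLDN10, ILDR1, PRKCZ and AMOT.

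CGN encodes cingulin, which links ZO-1 to the cytoskeleton. Its log2 signals were 3.73, not well above background, 4.46 and 4.73 on the first 3 arrays and 9.05 on the last, a difference of 4.32 ± 0.29 at 48 h. In the same order, the signals of CXADR, the coxsackievirus and adenovirus receptor, were 4.39, 5.01, 4.38 and 8.43, a difference of 4.05 ± 0.31, and its other probe differed by 1.83. JAM2, which encodes JAM-B, was not well above background on the first 3 arrays and had 7.41 on the last, a bound of at least 3.52 (at least 2.03 at its other probe).

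CLDN10, a claudin of ion-permeable junctions, had 4.45, 3.88 (not well above background), 4.50 and 7.38, a difference of 2.88 ± 0.32. PRKCZ, an atypical protein kinase C of the polarity complex, had 9.90, 9.72, 9.84 and 12.14, a difference of 2.29 ± 0.20. AMOT, whose product angiomotin binds junctional polarity proteins, was not well above background on the first 3 arrays and had 11.97 on the last, a bound of at least 8.08 (at least 271-fold). The other probe of AMOT gave at least 3.23.

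ILDR1, an angulin that recruits tricellulin to the contacts of 3 cells, went opposite ways on its probes. The brighter, measured by 10 spots per array, had 11.89, 12.03, 11.99 and 15.09, a difference of 3.10 ± 0.06, whereas the other had 4.62, 4.41, 4.69 and 2.94, with the last not well above background, a bound of −1.12. The direction for ILDR1 is therefore not settled. The remaining 29 of the 36 genes lay within 4-fold.

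The genes closest to the 3 members with the largest differences were sought by the Euclidean distance between log2 profiles over the 4 arrays, each centred on its own mean, among 14041 genes well above background on the same arrays. The profile of CLDN4 was nearest to those of MRPS16, SMIM8 and FAM76A, with distances of 0.080, 0.081 and 0.083. CLDN7 was nearest to LIX1L, MAPK8IP3 and GALNS, with 0.012, 0.022 and 0.025. OCLN at its brighter probe had fewer close profiles, and its nearest were CTAGE1, ZNF790-AS1 and DPY19L1P1 at 0.38, 0.54 and 0.60. With 4 arrays many genes share such a profile, and the likeness is a description.

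**Figure D4:**
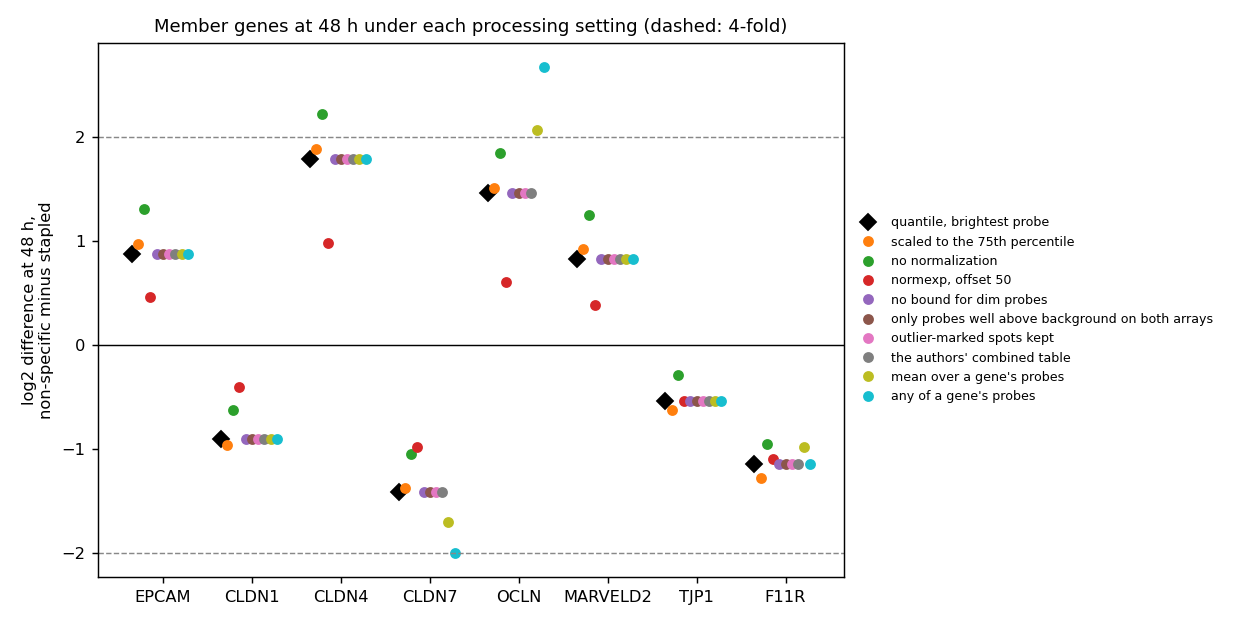
Log2 difference at 48 h (vertical axis, non-specific minus stapled) for the 8 member genes with a value (horizontal axis) under quantile normalization at the brighter probe (black diamonds) and each alternative (coloured points), with dashed lines at 4-fold. Every gene kept its side of 0, and the normexp background correction gave smaller absolute differences for every gene but TJP1.

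The direction at 48 h was the same under all settings tried, several of which could hardly move these values. Across 10 settings, quantile normalization included, the difference of EPCAM ran from 0.46 to 1.31, that of CLDN4 from 0.98 to 2.22, that of OCLN from 0.61 to 2.68 (the bound of its dimmer probe) and that of MARVELD2 from 0.38 to 1.25. On the other side CLDN7 ran from −2.00 to −0.98, F11R from −1.28 to −0.95, CLDN1 from −0.96 to −0.40 and TJP1 from −0.62 to −0.29. Without normalization the median over all genes shifted by 0.23, and the values of EPCAM, CLDN4 and MARVELD2 were at their highest there.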

How the data were processed

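RNA from the MCF-10A cultures was measured on 4 Agilent arrays of 1 colour, 1 per condition. The spot intensities were made by the authors with Agilent Feature Extraction and deposited as background-subtracted linear signals without normalization between arrays. The file headers name version 10.7.1.1 and the submitters' notes 9.5. The authors' combined table holds geometric means over spots of a probe. Signals under 1 were set to 1, control and outlier-marked spots were dropped, log2 signals were averaged over a probe's spots and quantile-normalized, as the study's methods state, and 28168 probes (55.7%) got a gene symbol through RefSeq accessions. A probe dim on 1 array was raised there to the lowest signal well above background of that array, unless its own signal was higher. The difference is then a bound. No value was given where a probe was dim on both arrays, or where it was no higher on the array that was well above background. Changes were counted at 4-fold, and 2-fold and 10-fold were also used. A gene of the lists is not reported here. The members, lists and rules were chosen with earlier results of these data known. Named are all members, list genes past 4-fold at 48 h and the 3 nearest profiles of 3 members. Alternatives are given at the end. The scripts were tested on simulated data. Python 3.11.15, numpy 2.4.6, pandas 2.3.3, matplotlib 3.10.9, R 4.3.3 and limma 3.58.1 were used.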

Additional observations from a re-analysis of the deposited data

Results flagged for a closer look

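For 3 members the difference between the peptides had opposite signs at the 2 times. CLDN1 differed by −0.90 at 48 h and by 0.08 at 24 h, CLDN7 by −1.41 and 0.03, and TJP1 by −0.54 and 0.10. The values at 24 h were within their technical errors of 0.20 to 0.24, and the change between the times was not tested, as there was 1 array per condition.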

How the results depend on the processing

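No paired analysis was possible because each condition has 1 array and the groups share fewer than 2 replicate numbers, and an additive fit of peptide and time over the 4 arrays was not run. The 0 members past 4-fold at 48 h became 1 without normalization (CLDN4), 1 when probes of a gene were averaged (OCLN), 4 at a threshold of 2-fold and 1 when any of a gene's probes counted (OCLN), a setting chosen after seeing the data. The 1 member past 4-fold at 24 h, OCLN at 2.09, became 0 under scaling to the 75th percentile (1.93), without normalization (1.92), under normexp (0.99) and at 10-fold. Between the times with non-specific stapled-Peptide, 1 member past 4-fold became 0 under scaling, under normexp and at 10-fold, 4 at 2-fold and 3 with any probe, and with stapled-Peptide the count stayed at 0. The median of the members at 48 h, 0.15, was 0.48 without normalization, −0.0115 under normexp and −0.0852 without the bound, where CLDN3 enters at that value. The 10 genes past 4-fold in both lists together became 6 under normexp (5 higher and 1 lower, from 7 and 3), 7 when both arrays had to be well above background, which drops the bounds, and 5 at 10-fold, and numbered 9 to 15 otherwise. Other than where stated, the cause of a change was not tested. Of 72 member values under alternatives at 48 h 55 stayed within the technical error, 17 moved by more and 0 changed sign. Many of these values could hardly move, at either time. The members with a value were well above background on both arrays and had no marked spots. The settings for bounds, marked spots and the combined table therefore left them almost unchanged. Those for several probes did the same for members with a single probe. The count of values that stayed is thus no measure of robustness. At 24 h 9 of 72 changed sign, all for members whose difference under quantile normalization at the brighter probe was within its technical error. These were CLDN1 (−0.0543), CLDN4 (−0.0488) and CLDN7 (−0.0020) under normexp, CLDN7 without normalization (−0.0015), MARVELD2 under scaling (−0.0153), without normalization (−0.0330) and under normexp (−0.0122), and F11R with the mean over probes (0.10) and with any probe (0.24). Both values of F11R draw on its dimmer probe, whose difference of 0.24 was past its technical error. Each member value rests on a single spot per array, and CLDN3 and the dimmer probe of OCLN were well above background on 1 array only.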

Other observations

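Of the 17 claudin genes outside the members, 9 had no value at 48 h because they were not well above background on either array. Of the 8 with a value, 4 were higher and 4 lower with non-specific stapled-Peptide, with a median difference of −0.26. The directions of CLDN9 and CLDN19, both lower at their brighter probes (the former as a bound), are not settled, since their other probes gave bounds of 0.62 and 0.50, and CLDN2 was within its technical error. The extremes were CLDN10, described above, and CLDN23 at −1.39.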
